A study of Mus musculus with 6 samples.

Results

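The genes described here are 7 that are known for holding leukocytes in a tissue or letting them leave it. Cd69 and Cxcr4 stand for retention, and S1pr1, S1pr4, S1pr5, Klf2 and Ccr7 for egress and homing. They were taken by name out of 22180 genes that have a probe set with a single gene symbol, and each has exactly 1 such probe set. All 7 lay above the median of their array on all 6 arrays, so none was removed by the filter on low values that left 18458 genes. The members were chosen by their tumor minus spleen differences on these same 6 arrays, above all the large one of Cd69. The values of the 7 genes are therefore given as a description, without a test, and tests are given only for other genes of the same pathways.

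The samples were inflammatory monocytes, sorted by flow cytometry as CD11b+, CD11c– and Ly6Chi cells from the spleen (n = 3) or the tumor (n = 3) of mice. Every mouse in both groups had received Th9 cells, a helper T cell type, and tissue was taken 10 days after the transfer, so no group without Th9 cells enters the comparison. The strain field of the labels reads Th9, and no source used here gives the mouse strain, age, tumor type or any pooling of animals. RNA was measured on Mouse Gene 2.0 ST arrays. Levels are log2(intensity + 1) and differences are tumor minus spleen on that scale, where 1 unit is a doubling. Groups are given as mean ± SD (n = 3) and differences ± SE.

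Sphingosine-1-phosphate (S1P) is a lipid that is plentiful in blood and lymph and scarce inside tissues, and leukocytes with S1P receptors follow it out. CD69, a membrane lectin that appears early in activation and is induced by type I interferon, binds S1PR1 and takes it off the cell surface, which keeps lymphocytes in place. KLF2 is a transcription factor that drives S1pr1 in T cells, CXCR4 follows CXCL12 and holds myeloid cells in the bone marrow, and CCR7 leads T cells and mature dendritic cells to lymph nodes. Most of this is known from lymphocytes. The control of S1PR1 by CD69 acts on protein, which arrays of RNA do not measure.

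Whether the 3 arrays of a group came from separate mice is not in the labels, so a p-value here reflects array to array spread, which could be technical alone. The arrays numbered 3 stood apart in both groups, with array medians of 4.73 and 4.76 against 4.497 to 4.51 on the others. Among the 4 arrays numbered 1 and 2, between 2449 and 3534 of 41345 probe sets had exactly equal values in any pair of arrays. Between these and the arrays numbered 3 there were 0 equal values, and between the 2 arrays numbered 3 there were 12. Values within each of these sets of arrays are therefore given beside the results. In the limma comparison 1952 of 18458 genes (10.6%) were called at a Benjamini-Hochberg adjusted p under 0.05, with 1057 higher (5.73%) and 895 lower (4.85%) in tumor. With quantile normalization the calls were 1585 higher and 1921 lower, with median centring 1483 and 1806, and with cyclic loess 1854 and 1330. With the replicate number as a block they were 2153 higher and 3193 lower.

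The genes behind the sort did not all match the gate. The CD11c gene Itgax, whose protein the gate was to be negative for, stood at 11.16 ± 0.12 in spleen and 10.31 ± 0.17 in tumor, and Itgam (CD11b) at 10.04 ± 0.15 and 9.19 ± 0.22. Ly6c2, behind Ly6C staining, rose from 6.81 ± 0.58 to 8.29 ± 0.40 (limma adjusted p = 0.0185), while Ly6c1 was at 3.65 ± 0.68 and 4.01 ± 0.40, near the 25th percentile of the arrays (3.46 to 3.61). Ccr2, the receptor that brings classical monocytes out of the marrow, fell from 6.86 ± 0.09 to 5.93 ± 0.15 (adjusted p = 0.00515), and the receptor gene Csf1r fell from 11.39 ± 0.13 to 10.82 ± 0.10 (adjusted p = 0.0428). The matrix proteoglycan gene Vcan rose by 2.44 ± 0.16, and F13a1 and the neutrophil antigen gene Ly6g differed by -0.04 ± 0.15 and -0.05 ± 0.35. Itgam without spleen 2, tumor 1 or tumor 2, Itgax without tumor 1, Ly6c2 without spleen 1 or spleen 2, and Csf1r without any array but tumor 3 were not called (adjusted p up to 0.173). The name monocytes is used below as the samples' label. In sorted bulk cells a change in the share of a cell type and a change in its RNA per cell cannot be told apart.

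Cd69 was far higher in tumor monocytes than in spleen monocytes. Its level was 6.06, 6.12 and 6.14 on spleen arrays 1 to 3 and 11.86, 11.64 and 11.52 on tumor arrays 1 to 3. The spleen arrays lay within 0.1 of one another and the lowest tumor array lay more than 5 units above them. On the linear scale this is an intensity of 65.8 to 69.4 in spleen and of 2932 to 3719 in tumor. The difference was 5.57 ± 0.15, or 47.4-fold, which ranked 6 of 18458 genes counted from the highest. It was 5.66 among the arrays numbered 1 and 2 and 5.38 in the pair numbered 3. Cd69 levels were thus close within each tissue and set apart between them.

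Cxcr4, the other retention gene, went the other way. It stood at 10.55, 10.68 and 10.66 on the spleen arrays and at 10.05, 9.96 and 10.10 on the tumor arrays. The groups did not overlap, and the tumor level was lower on each array. The difference was -0.59 ± 0.14, a 1.51-fold lower intensity in tumor, with -0.61 among numbers 1 and 2 and -0.57 in number 3. The 2 retention genes thus did not share a direction.

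**Figure D1:**
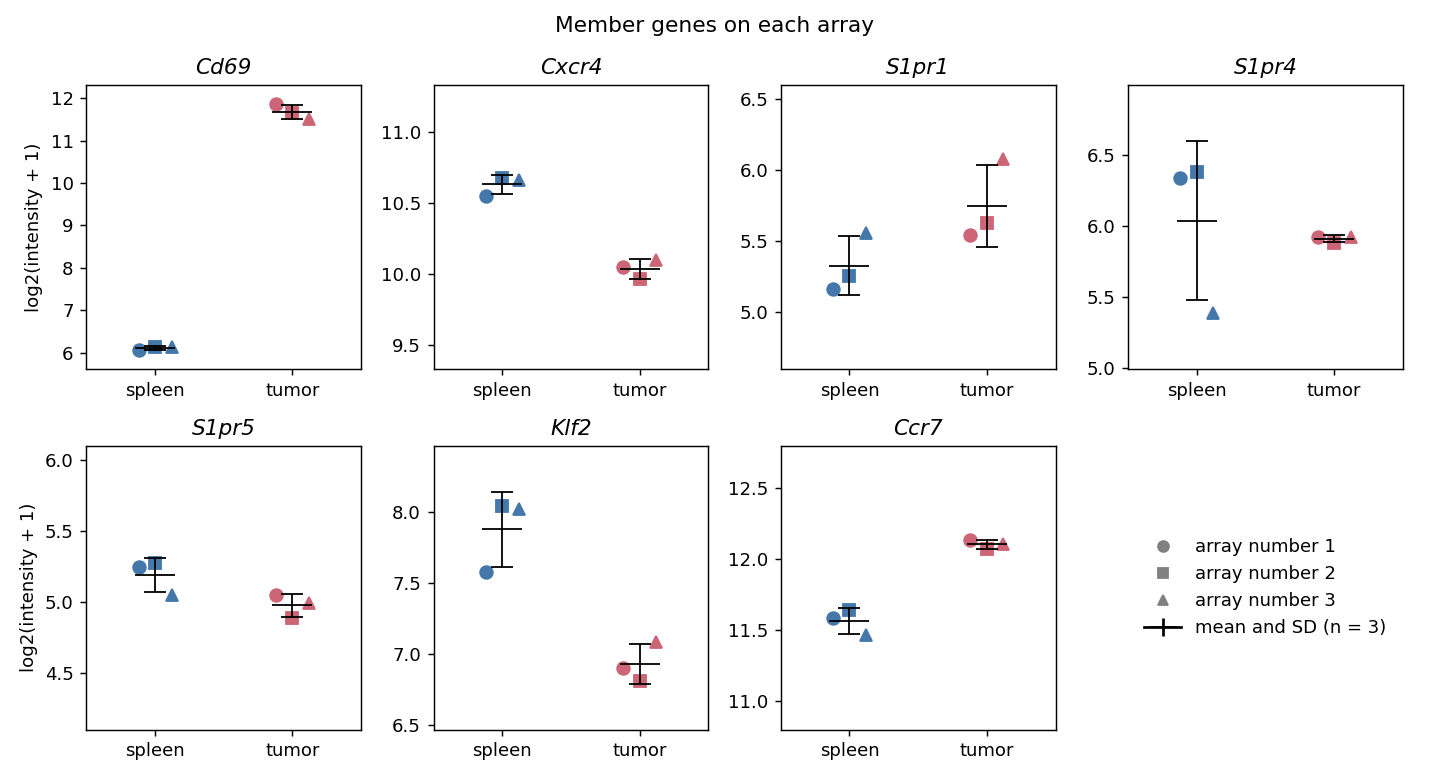
Level of each of the 7 genes on each array, as log2(intensity + 1), with blue for spleen and red for tumor, marker shapes for the array number and black bars for the mean and SD (n = 3). Each panel has its own vertical range. Cd69 stands at about 6 in spleen and between 11.52 and 11.86 in tumor, the S1pr4 value of spleen array 3 lies apart at 5.39, and the groups overlap for S1pr1 and S1pr4.

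S1pr1, the receptor that leads lymphocytes out along the S1P gradient, was not lower in tumor. It stood at 5.17, 5.26 and 5.56 on the spleen arrays and at 5.54, 5.63 and 6.08 on the tumor arrays. In both groups the array numbered 3 was the highest, and spleen array 3 lay just above tumor array 1, so the groups overlapped. At each array number the tumor value was the higher. The difference was 0.42 ± 0.19 (1.34-fold), with 0.37 among numbers 1 and 2, 0.52 in number 3 and 0.26 without tumor 3. Its intensities were low, at 34.9 to 46.2 in spleen and 45.6 to 66.7 in tumor, where array medians were 21.6 to 26.0.

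S1pr4, an S1P receptor found mainly on blood cells, had 1 spleen array that stood apart. It stood at 6.34, 6.38 and 5.39 on the spleen arrays and at 5.92, 5.88 and 5.92 on the tumor arrays. The tumor arrays lay between spleen array 3 and the other spleen arrays. The difference was -0.13 ± 0.26 over all arrays, but -0.46 among numbers 1 and 2 and 0.53 in number 3, so the sign depends on the set of arrays. It was -0.45 without spleen 3, 0.02 without spleen 1 and 0.04 without spleen 2.

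S1pr5, which natural killer cells and patrolling monocytes use to leave the bone marrow, hardly differed. It stood at 5.25, 5.28 and 5.052 on the spleen arrays and at 5.051, 4.89 and 4.998 on the tumor arrays. The groups did not overlap, but spleen array 3 and tumor array 1 were equal to the second decimal. The difference was -0.21 ± 0.14 (1.16-fold lower), with -0.29 among numbers 1 and 2 and -0.05 in number 3.

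Klf2, the transcription factor upstream of S1pr1 in T cells, was lower in tumor. It stood at 7.57, 8.04 and 8.02 on the spleen arrays and at 6.90, 6.80 and 7.08 on the tumor arrays. Spleen array 1 was the lowest of its group and still lay above every tumor array. The difference was -0.95 ± 0.18 (1.93-fold lower), with -0.95 among numbers 1 and 2 and -0.94 in number 3. Klf2 was thus lower in tumor, while S1pr1, whose groups overlapped, was not.

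Promoter sequence is shown for the pair of genes that were lower in tumor with clearly separate groups, Klf2 and Cxcr4. RefSeq start sites of GRCm38.p6 were matched by symbol for 4 of the 7 genes, and Cd69, S1pr1 and Ccr7 had no entry in the table used. The 250 bases before the start site of Klf2 (chr8:72318812-72319061, plus strand) and of Cxcr4 (chr1:128592300-128592549, minus strand) are given 5′ to 3′. Capitals mark the letters searched for, in Klf2 a palindrome that MEF2 factors are known to bind, and in Cxcr4 a palindrome known for the factor NRF1.
Klf2: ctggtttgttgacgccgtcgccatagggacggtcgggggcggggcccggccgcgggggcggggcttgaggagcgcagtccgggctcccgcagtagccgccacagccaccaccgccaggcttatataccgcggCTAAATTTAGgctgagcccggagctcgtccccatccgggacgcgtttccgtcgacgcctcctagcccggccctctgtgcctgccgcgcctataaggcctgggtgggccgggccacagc
Cxcr4: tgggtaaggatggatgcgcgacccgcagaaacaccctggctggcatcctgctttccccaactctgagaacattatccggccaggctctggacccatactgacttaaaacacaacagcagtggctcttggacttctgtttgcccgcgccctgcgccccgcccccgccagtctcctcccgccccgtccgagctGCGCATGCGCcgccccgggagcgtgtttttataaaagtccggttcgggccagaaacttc

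The MEF2 letters lie 118 to 109 bases before the Klf2 start and occur, on either strand, in 0.0396% of the 32851 promoter windows of this length. The NRF1 letters lie 59 to 50 bases before the Cxcr4 start and occur in 0.782% of windows. Both motifs were chosen after these sequences were read, and a match is a description of letters. The GC box CCGCCC, searched on both strands, was found 3 times in Cxcr4, 2 times in Klf2, 2 times in S1pr5 and 0 times in S1pr4, and in 32.7% of windows. The KLF core CACCC, also searched on both strands, was found 1 time each in Cxcr4, Klf2 and S1pr4 and 2 times in S1pr5, and in 52.0% of windows. In Cxcr4 1 GC box overlaps the NRF1 letters.

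Ccr7, the lymph node homing receptor, was higher in tumor and bright in both tissues. It stood at 11.59, 11.64 and 11.46 on the spleen arrays and at 12.14, 12.07 and 12.11 on the tumor arrays. The groups did not overlap, and the spread was small in both. The difference was 0.54 ± 0.14 (1.46-fold), with 0.49 among numbers 1 and 2 and 0.64 in number 3.

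Across the set the labels of retention and egress did not sort the genes by direction. Of the 2 retention genes 1 was higher and 1 lower in tumor. By the sign of the difference, 2 of the 5 egress and homing genes were higher (S1pr1 and Ccr7) and 3 lower (Klf2, S1pr4 and S1pr5). The sign of S1pr4 depended on the set of arrays, and the S1pr1 groups overlapped. Over all genes tested 41.4% had a positive difference. The tumor and spleen arrays did not overlap for 5 of the 7 genes, with 25.4% of all genes tested as the background, and since this contrast chose the set nothing is read from that count. The median difference of the 7 genes was -0.13, and that of all genes tested -0.05. A larger absolute difference than that of Klf2 was seen in 6.06% of genes tested, than that of Cxcr4 in 14.2%, of Ccr7 in 16.5%, of S1pr1 in 23.0%, of S1pr5 in 45.1% and of S1pr4 in 61.3%. Cd69 stands alone in size, with the others within 1 unit of 0.

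**Figure D2:**
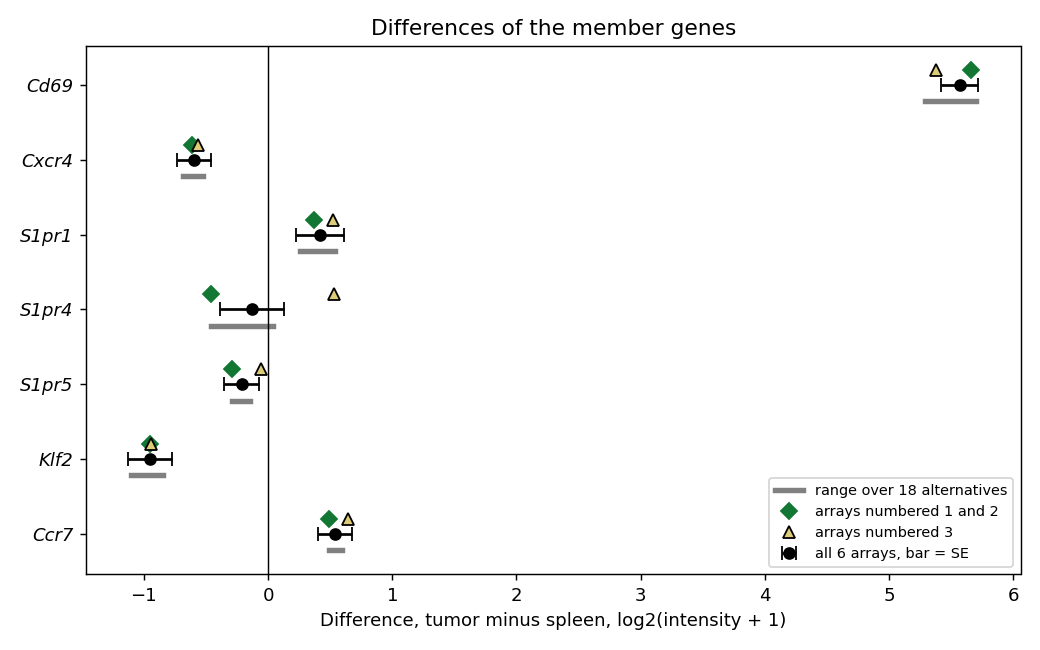
Difference of each gene, tumor minus spleen, on the log2(intensity + 1) scale. Black points with bars are the value over all 6 arrays and its SE, green diamonds the arrays numbered 1 and 2, yellow triangles the pair numbered 3, and grey bars the range over 18 alternative processings. Cd69 lies above 5 and no other gene goes beyond -1.10 in any processing, while the S1pr4 values of the 2 sets of arrays, -0.46 and 0.53, lie on opposite sides of 0.

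The genes whose values over the 6 arrays were most like those of Cd69 were genes induced by interferon. Among 15702 protein-coding genes, leaving out predicted ones, likeness was measured as the Euclidean distance between profiles centred on each gene's own mean. Trim30c was nearest (distance 0.37, Pearson r = 0.999), followed by Oasl1 (0.43), Ifit1 (0.59), Ifi205 (0.71) and Cmpk2 (0.81), with differences between 5.21 and 5.96. For S1pr1 the nearest were Top3a (0.05), Fam126a (0.08), Ppp6r1, Gmeb2 and Tnfrsf11a, with differences between 0.36 and 0.43. For Klf2 they were Bdh1 (0.17), Adam23 (0.19), Zfp703 (0.20), Ccn1 and Echs1, with differences between -0.997 and -0.89. The points of each profile share the arrays, so these are descriptions of 6 values per gene. For Cd69 the distance and the high r mainly reflect the difference between tissues, by which Cd69 was chosen. Its nearest genes are thus others with a difference of like size, and shared control was not tested.

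The other genes of S1P biology changed in both directions, and most were not called. Of 17 further genes that sense, make, break down or export S1P, 4 rose, 1 fell and 12 were not called (limma, adjusted p under 0.05, against 5.73% and 4.85% of all genes tested). S1pr2, a receptor that slows migration, stood at 7.83, 7.84 and 8.04 in spleen and at 8.59, 8.76 and 8.86 in tumor, a rise of 0.83 ± 0.15 (adjusted p = 0.00882). Every tumor array was above every spleen array. Plpp1, a surface phosphatase of lipid phosphates, rose by 1.23 ± 0.20 (adjusted p = 0.00633), and the ceramidase genes Asah2 and Acer3, whose enzymes release sphingosine, rose by 1.05 ± 0.19 and 0.85 ± 0.20. Sgpp1, the phosphatase that turns S1P back into sphingosine inside cells, fell by 0.85 ± 0.19 (adjusted p = 0.0236). The kinase genes Sphk1 (0.19 ± 0.14) and Sphk2 (-0.17 ± 0.29), the lyase gene Sgpl1 (-0.22 ± 0.21) and the exporter genes Spns2 (-0.26 ± 0.15) and Mfsd2b (0.48 ± 0.16) were not called. The median difference of the list was 0.02, against -0.05 for all genes tested.

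As a block, the replicate number gave the S1P list 7 higher and 3 lower. The same fit called 2153 higher and 3193 lower of 18458 genes, against 1057 and 895 in the main fit. Calls that this block added in this and the later lists are to be read against that growth over all genes. The added calls were S1pr3 (0.60, adjusted p = 0.00273), Plpp3 (0.91, adjusted p = 3.28e-04) and Mfsd2b (0.48, adjusted p = 0.0186) on the higher side and Plpp2 (-0.53, adjusted p = 0.00543) and Asah1 (-0.40, adjusted p = 0.0188) on the lower. S1pr2 was not called without spleen 1 or spleen 2, Sgpp1 without any array but tumor 3, Asah2 without tumor 1, and Acer3 without spleen 1, spleen 2, tumor 1 or tumor 3 (adjusted p up to 0.12). Sgpp1 was also not called with the mean of probe sets. Plpp1 kept its call with each array left out.

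Of 17 genes that pass on or end the signals of these receptors, 2 rose, 5 fell and 10 were not called. Of all genes tested 5.73% rose and 4.85% fell. The median difference of the list was -0.21. Rgs1, which shortens signalling by chemoattractant receptors and marks resident lymphocytes, stood at 8.92, 8.91 and 8.81 in spleen and at 10.26, 9.96 and 10.03 in tumor, a rise of 1.21 ± 0.15 (adjusted p = 0.00123). Rgs14 rose by 0.67 ± 0.15 (adjusted p = 0.0246). Gna12, a G protein subunit, fell by 1.24 ± 0.15 (adjusted p = 0.00104), and the exchange factor gene Arhgef1 by 0.66 ± 0.16 (adjusted p = 0.0343). The desensitising proteins' genes Arrb1 (-0.84 ± 0.14), Grk6 (-0.78 ± 0.20) and Grk5 (-0.69 ± 0.18) fell as well. Gnai2 and Gnai3, whose products couple S1PR1, CXCR4 and CCR7 to the cell, differed by -0.25 ± 0.13 and 0.23 ± 0.16 and were not called. Rgs1, Gna12 and Arrb1 kept their calls with each array left out, while Grk5, Grk6 and Arhgef1 lost theirs without any array but tumor 3, and Rgs14 without any array but spleen 3 (adjusted p up to 0.188). Grk6 was also not called with no filter or with a trended prior. In the fit with the replicate number as a block 3 were higher and 7 lower, Gna13 (0.47, adjusted p = 0.00731), Arrb2 (-0.61, adjusted p = 0.00226) and Rgs19 (-0.66, adjusted p = 0.00188) being added.

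Among the guidance cues, the oxysterol pair Ch25h and Gpr183 rose. Ch25h, the enzyme that starts the synthesis of the oxysterol ligand, stood at 8.36, 8.53 and 8.57 in spleen and at 11.85, 11.80 and 11.76 in tumor. The rise of 3.32 ± 0.14 (9.97-fold, limma adjusted p = 3.72e-06) was larger than that of any other gene in the 7 pathway lists. Gpr183, the receptor (EBI2) that follows this ligand, stood at 8.46, 8.46 and 8.71 in spleen and at 9.91, 9.98 and 10.09 in tumor, a rise of 1.45 ± 0.15 (adjusted p = 4.45e-04). Hsd3b7, the enzyme that ends the ligand, fell by 0.93 ± 0.24 (adjusted p = 0.0464), and Cyp7b1, the enzyme between them, differed by -0.04 ± 0.17. Cyp7b1 was dim, at 3.87 in spleen and 3.83 in tumor and under the median of every array, so little can be read from its difference. Dpp4, the peptidase that trims CXCL12, rose by 0.87 ± 0.20 (adjusted p = 0.0292).

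Of 9 guidance genes tested 3 rose, 1 fell and 5 were not called, against 5.73% higher and 4.85% lower of all genes tested. The median difference was 0.00. Cxcl12 (0.29 ± 0.14) and its scavenger Ackr3 (0.00 ± 0.16) were not called. Ccl19, the Ccl21 genes and Cd74 share probe sets with other symbols and were not analysed here, and Ackr4 lay under the 25th percentile on all arrays. With the replicate number as a block 2 were lower, Mif (-0.41, adjusted p = 0.0177) being added. Ch25h and Gpr183 kept their calls with each array left out. Dpp4 without spleen 1, spleen 2, tumor 1 or tumor 3, and Hsd3b7 without any array but tumor 3, with no filter or with log2(value + 16), were not called (adjusted p up to 0.189).

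**Figure D3:**
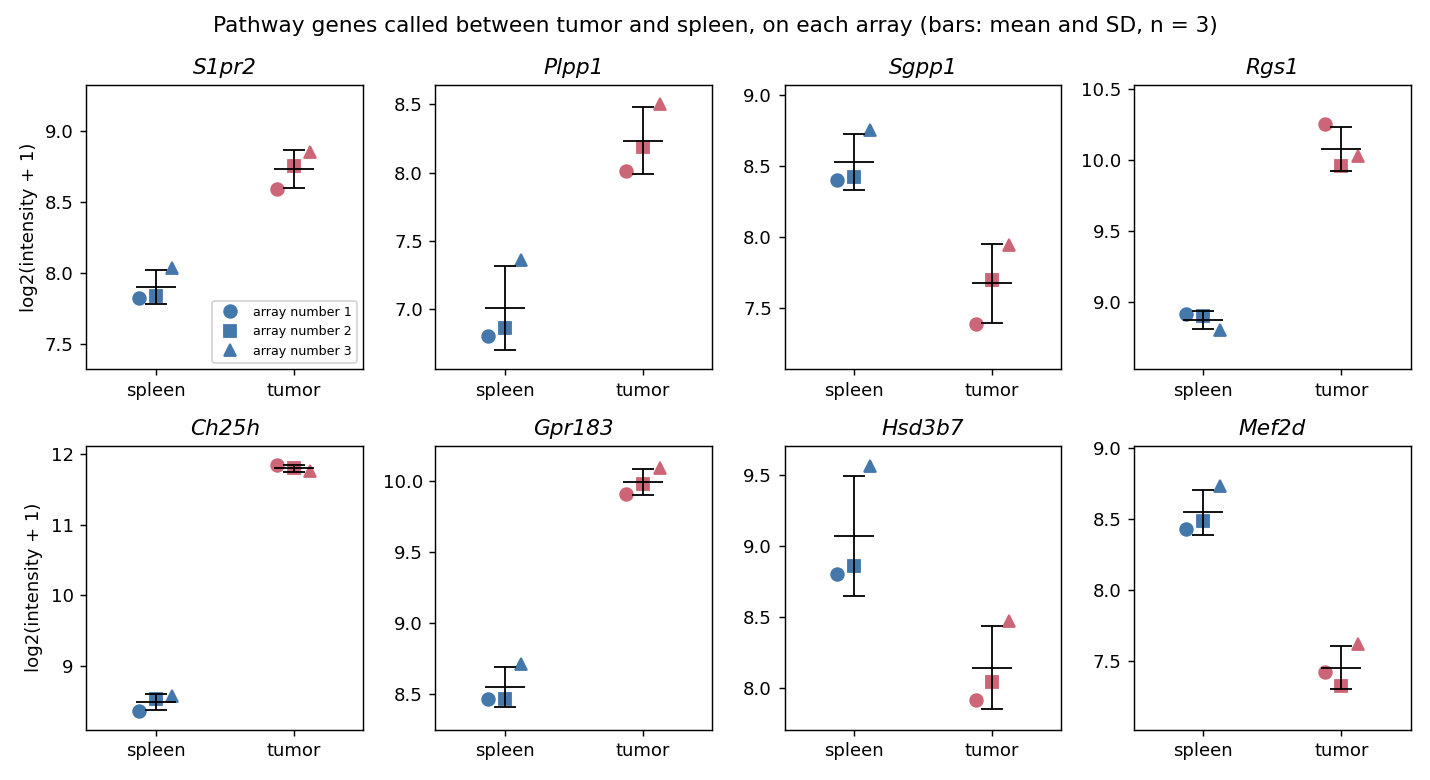
Level of 8 called genes of the pathway lists on each array, as log2(intensity + 1), with blue for spleen and red for tumor, shapes for the array number and black bars for the mean and SD (n = 3). Each panel has its own vertical range. In all 8 genes every tumor array lies on one side of every spleen array, with the widest gap for Ch25h, from 8.57 to 11.76.

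Genes known from resident and from recirculating T cells were called in both directions within each list. Of 15 genes known as high in resident T cells, 1 rose (Rgs1) and 2 fell, the ATP receptor gene P2rx7 by 0.997 ± 0.18 (adjusted p = 0.0101) and Cd244a by 1.21 ± 0.25 (adjusted p = 0.0163). Itgae (-0.13 ± 0.22), Cxcr6 (-0.00 ± 0.21) and Itga1 (-0.06 ± 0.25), which define resident T cells, were not called. Of these, Cxcr6 was dim, at 3.53 in spleen and 3.53 in tumor and under the median of every array. Little can be read from the Cxcr6 difference. Prdm1 differed by 0.31 ± 0.20, Runx3 by 0.09 ± 0.40, Bhlhe40 by -0.06 ± 0.16 and Ahr by -0.65 ± 0.18. Of 11 genes known as high in recirculating T cells, 1 rose, the cytokine receptor gene Il7r (0.57 ± 0.15, adjusted p = 0.0451), and 2 fell, Id3 (-1.12 ± 0.15, adjusted p = 0.00226) and the integrin gene Itgb7 (-0.98 ± 0.20, adjusted p = 0.017). Median differences of the lists were -0.06 each. Over all genes tested 5.73% were called higher and 4.85% lower. The names of these lists come from T cells.

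With the replicate number as a block 3 resident genes (Prdm1 and Nr4a1 added, adjusted p = 0.0397 and 0.0386) and 3 recirculating genes (Klf3 and Itga4 added, adjusted p = 0.002 and 0.00542) were higher, and Ahr was lower (adjusted p = 0.00156). P2rx7 without tumor 1, Cd244a without tumor 1 or tumor 2, Itgb7 without spleen 1, spleen 2 or tumor 1 or among the arrays numbered 1 and 2, and Il7r without any array but spleen 3 were not called (adjusted p up to 0.193). Rgs1 and Id3 kept their calls with each array left out.

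In a path known to induce Klf2, the gene Mef2d fell. KLF2 can be induced through the kinases MEK5 and ERK5, which activate MEF2 factors. Whether the genes of this path bear on the lower Klf2 level was not tested. Mef2d stood at 8.43, 8.48 and 8.73 in spleen and at 7.42, 7.32 and 7.62 in tumor, a fall of 1.09 ± 0.16 (adjusted p = 0.00312) that was called with each array left out. Map2k5 (MEK5, -0.23 ± 0.25), Mapk7 (ERK5, -0.43 ± 0.17), Mef2a (-0.11 ± 0.17) and Mef2c (0.49 ± 0.18) were not called. Of the relatives of Klf2, Klf6 rose by 0.97 ± 0.22 (adjusted p = 0.0256) and Klf13 fell by 0.52 ± 0.14 (adjusted p = 0.0494). Klf3 (0.60 ± 0.21), Klf4 (0.44 ± 0.23), Klf7 (0.02 ± 0.16), Klf10 (-0.13 ± 0.23) and Thbd (-0.33 ± 0.15), a target of KLF2 in endothelium, were not called.

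Of these 12 genes 1 rose, 2 fell and 9 were not called, against 5.73% higher and 4.85% lower of all genes tested. The median difference was -0.12. With the replicate number as a block 4 were higher, Klf3 (adjusted p = 0.002), Klf4 (0.018) and Mef2c (0.0296) being added, and Mapk7 was lower (adjusted p = 0.0189). Klf6 was not called without spleen 1, spleen 2, tumor 1 or tumor 3 (adjusted p up to 0.1). Klf13 was not called without any 1 array (adjusted p up to 0.174), with quantile normalization, cyclic loess, the mean of probe sets or a trended prior.

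Relatives and partners of Cd69 did not show differences of its size. Clec2d and Clec2l, members of the same lectin family, rose by 0.66 ± 0.15 (adjusted p = 0.0246) and 0.74 ± 0.14 (adjusted p = 0.0134), where Cd69 stood at 5.57. Clec2i differed by -0.24 ± 0.14, and Clec2e, Clec2g and Clec2h lay near the 25th percentile of the arrays, at spleen levels of 3.44, 3.59 and 3.76. Of proteins described as binding CD69, the galectin gene Lgals1 fell by 0.59 ± 0.14 (adjusted p = 0.0335) and the amino acid transporter gene Slc7a5 by 0.66 ± 0.17 (adjusted p = 0.0449). S100a8 (-0.37 ± 0.20), S100a9 (-0.29 ± 0.31) and Slc3a2 (0.36 ± 0.14), the partner chain of Slc7a5, were not called. Of 16 tested, 2 rose, 2 fell and 12 were not called, against 5.73% higher and 4.85% lower of all genes tested. The median difference was -0.23.

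With the replicate number as a block 4 of the Cd69 relatives and partners were lower, Klrb1f (-0.90, adjusted p = 3.47e-04) and S100a8 (adjusted p = 0.0206) being added, and Slc3a2 was higher (adjusted p = 0.0244). Clec2d without spleen 1, spleen 2, tumor 1 or tumor 2 or with quantile normalization, and Clec2l without spleen 1, spleen 2 or tumor 2, were not called (adjusted p up to 0.0977). Lgals1 without any array but spleen 3 or with cyclic loess, and Slc7a5 without any 1 array, with a trended prior or among the arrays numbered 1 and 2, were not called either (adjusted p up to 0.186).

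**Figure D4:**
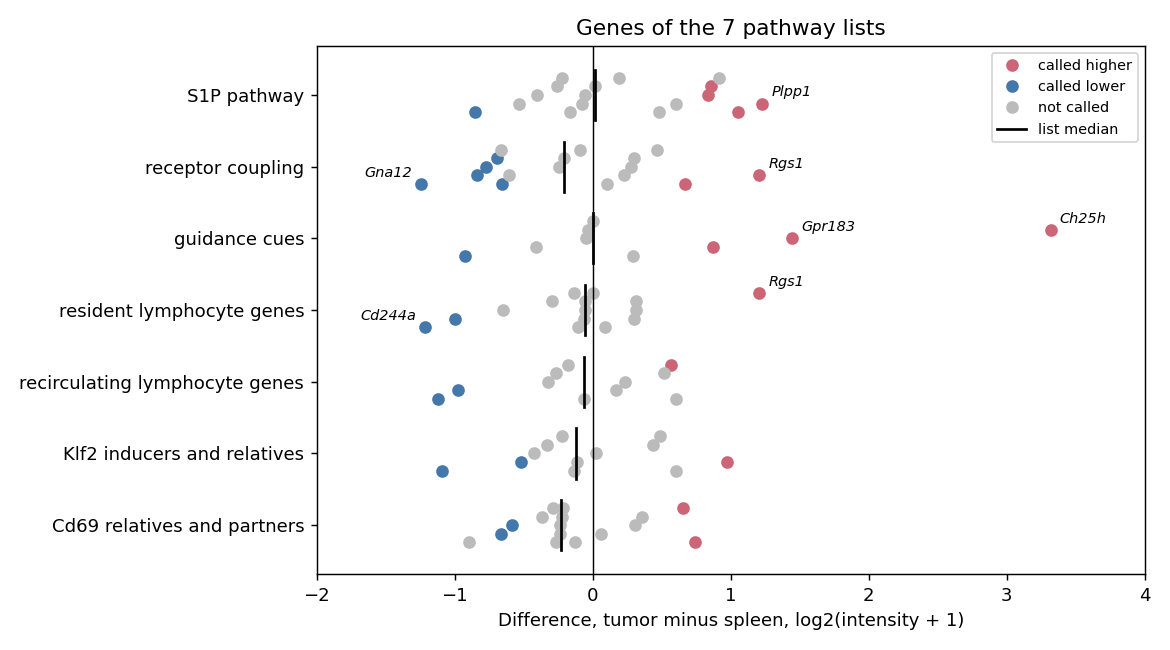
Difference of each tested gene of the 7 pathway lists, tumor minus spleen, on the log2(intensity + 1) scale, 1 point per gene, with red for genes called higher, blue for genes called lower and grey for the rest (limma, adjusted p under 0.05). Black lines mark list medians, which lie between -0.23 and 0.02. Each list holds both red and blue points, and Ch25h lies farthest out at 3.32. Klf3, Rgs1 and Rgs2 are each drawn in 2 lists.

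Several of the 7 genes are also used by other leukocytes, so marker genes of such cells were read beside them. Calls in this and the following marker lists stand against 5.73% higher and 4.85% lower of all genes tested. T cells carry Cd69, Ccr7, Klf2 and S1pr1. Of 10 T cell markers tested 0 rose (0 also at an unadjusted p under 0.05) and 1 fell, Cd3g, by 1.36 ± 0.18 (adjusted p = 0.00219). Cd28 differed by -0.80 ± 0.22 (adjusted p = 0.0506) and was called lower with the replicate number as a block (adjusted p = 0.0046), with quantile normalization, median centring, cyclic loess, the 50th percentile filter and array weights. The summed intensity of the list was 401 to 449 on the spleen arrays and 272 to 345 on the tumor arrays, and Cd3d (4.69 and 4.69) and Cd3e (4.96 and 5.02) had like levels in both groups. The part of T cells in the Cd69 and Ccr7 values was not tested. No marker was at 0, since background keeps array values above it.

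Mature dendritic cells carry Ccr7. Markers of conventional dendritic cells summed to 10327 to 11586 in spleen and 12742 to 14150 in tumor. Ccl22 was at 12.43 and 12.77, Fscn1 at 10.96 and 11.41 and Ccl17 at 11.26 and 11.50 in spleen and tumor, none of them called in the main fit. Fscn1 and Ccl22 were called higher with the replicate number as a block (adjusted p = 0.00838 and 0.0301), quantile normalization, cyclic loess and array weights. Fscn1 was also called higher with median centring, log2(value + 16), a trended prior and among the arrays numbered 1 and 2. Cd209a (-0.41 ± 0.19) and Xcr1 (-0.29 ± 0.17) lay lower in tumor and were not called. Cd209a was called lower with the replicate number as a block (adjusted p = 0.0438), the mean of probe sets and array weights. Of 7 tested, 1 rose, the dendritic cell factor gene Zbtb46 (0.89 ± 0.17, adjusted p = 0.012), which was not called without spleen 1, spleen 2 or tumor 2 (adjusted p up to 0.0627). Genes of mature dendritic cells were thus bright in both groups beside Ccr7, and their part in its difference was not tested.

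Natural killer cells and patrolling monocytes carry S1pr5. Natural killer markers summed to 328 to 397 in spleen and 479 to 620 in tumor, with 0 of 6 called by limma (1 higher at an unadjusted p under 0.05) and Klrd1 (0.76 ± 0.21) and Klre1 (0.40 ± 0.28) differing most. Klrd1 was called higher with the replicate number as a block (adjusted p = 6.67e-04). The same call came with quantile normalization, median centring, cyclic loess, the 50th percentile filter, array weights and among the arrays numbered 1 and 2. It was the brightest of the list, at 7.95 ± 0.29 in spleen and 8.71 ± 0.31 in tumor, so the sums mainly follow Klrd1. Of the other markers, Ncr1 (-0.07 ± 0.19) and Prf1 (-0.01 ± 0.24) hardly differed. Gzma (0.29 ± 0.30) and Eomes (0.17 ± 0.23) differed by about their SE or less. Markers of nonclassical monocytes summed to 3421 to 4422 in spleen and 2650 to 3283 in tumor. Cd36 was the brightest of this list, at 10.81 ± 0.23 in spleen and 10.26 ± 0.27 in tumor, so it weighs most in the sums. Of 9 tested, 0 rose (0 also at an unadjusted p under 0.05) and 2 fell, Spn by 1.18 ± 0.20 (adjusted p = 0.00652) and Eno3 by 0.95 ± 0.16 (adjusted p = 0.00752, not called among the arrays numbered 1 and 2). Nr4a1 was called higher with the replicate number as a block (0.31, adjusted p = 0.0386), and Ace (-0.40, adjusted p = 0.0217), Itgal (-0.32, adjusted p = 0.0389) and Cd36 (-0.55, adjusted p = 0.00618) were called lower with it. Cx3cr1 (-0.06 ± 0.25), Treml4 (0.24 ± 0.15) and Pglyrp1 (-0.09 ± 0.19) were not called, also not with that block. The part of natural killer cells and nonclassical monocytes in the S1pr5 values was not tested.

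Endothelial cells carry S1pr1 and Klf2. Their markers summed to 537 to 645 in spleen and 611 to 838 in tumor, and of 6 tested Kdr rose by 2.88 ± 0.23 and Vwf fell by 1.37 ± 0.15, while Cdh5 stood at 5.36 and 5.29. Neutrophils carry Cxcr4 as they age, and their markers summed to 3278 to 3947 in spleen and 2420 to 2754 in tumor. Of 9 tested 1 was called by limma, Mmp8 (-0.68 ± 0.16, adjusted p = 0.034, not called without any array but tumor 3, adjusted p up to 0.141). Csf3r (-0.60 ± 0.18) followed, called with the replicate number as a block (adjusted p = 0.0193), as was S100a8 (adjusted p = 0.0206). Mmp8 was the brightest of the list, at 10.93 ± 0.22 in spleen and 10.25 ± 0.12 in tumor, so the sums mainly follow Mmp8. The markers Ly6g (-0.05 ± 0.35), Ltf (-0.01 ± 0.21), Ngp (-0.04 ± 0.17), Cxcr2 (-0.14 ± 0.17), S100a9 (-0.29 ± 0.31) and Camp (0.22 ± 0.28) differed by less than their SE. B cell markers summed to 118 to 204 and 114 to 184, with 0 of 6 called by limma (0 at an unadjusted p under 0.05), Cd79b (-0.51 ± 0.26) and Blk (0.35 ± 0.16) differing most. Plasmacytoid dendritic cell markers summed to 139 to 212 and 139 to 218, with 0 of 5 called by limma (0 at an unadjusted p under 0.05), Ly6d (0.23 ± 0.24) and Pacsin1 (-0.19 ± 0.21) differing most. Of red cell precursors only Klf1 (0.20 ± 0.21) and Epor (-0.18 ± 0.14) had a probe set of their own. The part of these cells in the values of Cxcr4, S1pr1 and Klf2 was not tested.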

How the data were processed

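The authors deposited 1 table of linear intensity values for the 6 arrays, by probe set, made with RMA per the submitters' processing notes, which give no version or setting. RNA had an integrity number above 8.5, per the labels' protocols. Of 41345 probe sets 23521 carry 1 gene symbol in the platform's annotation, 1814 several and 16010 none, and only the first kind was used. The probe set with the highest mean stood for a gene. Genes above the 25th percentile of their array on at least 3 arrays were tested with limma 3.58.1 (R 4.3.3, two-sided, lmFit then eBayes) on log2(intensity + 1). The model held group alone, and p-values were adjusted by Benjamini-Hochberg over 18458 genes. With 3 arrays a group the smallest exact permutation p is 0.1, and the number of arrays limits the precision. The fit was tested on simulated data.

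The members and lists were chosen with earlier results of these data known. Named were all 7 members, of each pathway list up to 3 called genes per direction, or where none was called the 2 of smallest p, of each marker list the 2 largest changes and all genes of the sorted monocytes, and the 5 nearest profiles of Cd69, S1pr1 and Klf2. Genes named beyond that were chosen after their values were seen. After removing group means, spleen and tumor arrays with the same number (1, 2 or 3) correlated at 0.361, 0.44 and 0.709, and spleen 1 with tumor 2 at 0.463. Spleen 2 correlated with tumor 1 at 0.347, and pairs with only 1 array numbered 3 correlated at -0.589 to -0.436. These values set the arrays numbered 3 apart but do not tell number 1 from number 2. No label explains the numbers, so whether they pair the samples is not known, and the replicate block is only an alternative. Alternatives were quantile normalization, median centring, cyclic loess, no filter, a 50th percentile filter, log2(value + 16), the mean of probe sets, a trended and robust prior, array weights, the replicate block, the arrays numbered 1 and 2 alone and each array left out. A block for the arrays numbered 3 was chosen after seeing the data.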

Additional observations from a re-analysis of the deposited data

How the results depend on the processing

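The member differences kept their sign under 18 alternatives, except S1pr4, which was 0.02 and 0.04 without spleen 1 or 2. They moved by over 1 SD for Cd69 (5.29 with log2(value + 16), 5.70 with array weights) and Cxcr4 (-0.69 with quantile normalization, -0.52 with cyclic loess). Counts moved over 1.5 times as follows, written as higher or lower in tumor. Over all genes the lower count was 1921 with quantile normalization, 1806 with median centring and 1549 among the arrays numbered 1 and 2, and the higher count 1854 with cyclic loess. With array weights the counts were 2867 higher and 4235 lower, and the lists had S1P 7 higher and 3 lower, receptor coupling 5 and 8, Klf2 relatives 4 and 5, 2 guidance cues lower, 4 resident and 3 recirculating genes higher, and 7 Cd69 relatives lower. With the replicate block the counts were 2153 higher and 3193 lower, with S1P 7 and 3. Klf2 relatives had 4, resident genes 3 and recirculating genes 3 higher, and 2 guidance cues and 4 Cd69 relatives were lower. A block for the arrays numbered 3 gave 2181 higher and 3285 lower, S1P 7 and 3, 4 receptor coupling genes, 4 Klf2 relatives, 3 resident and 3 recirculating genes higher, and 2 guidance cues and 4 Cd69 relatives lower. Quantile normalization gave 3 S1P genes lower, 3 recirculating genes higher, Klf2 relatives 3 higher and 1 lower, and 1 Cd69 relative higher. Median centring gave 3 S1P genes lower, and 3 recirculating genes and 3 Klf2 relatives higher. Cyclic loess gave 3 resident and 3 recirculating genes higher and Klf2 relatives 4 higher and 1 lower. Among the arrays numbered 1 and 2 recirculating genes were 3 higher and 1 lower and 2 Klf2 relatives higher. Guidance cues had 0 lower with no filter and with log2(value + 16), S1P 0 lower and Klf2 relatives 1 lower with the mean of probe sets, and Klf2 and Cd69 relatives 1 lower each with the trended prior. The cause of these shifts was not tested.

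With each array left out in turn, all genes ranged from 662 to 1240 higher (662 and 681 without spleen 2 and spleen 1) and 293 to 1036 lower (293, 369, 443 and 466 without tumor 1, spleen 2, tumor 2 and spleen 1). S1P ranged from 2 to 4 higher and 0 to 1 lower, receptor coupling from 1 to 2 and 2 to 5, guidance cues from 2 to 3 and 0 to 1, resident genes at 1 higher and 0 to 3 lower, and recirculating genes from 0 to 2 and 1 to 2. Klf2 relatives ranged from 0 to 2 higher with 1 lower, and Cd69 relatives from 0 to 2 higher and 0 to 1 lower. Differences ranged from 5.47 to 5.64 for Cd69, -0.63 to -0.56 for Cxcr4, 0.26 to 0.54 for S1pr1, -0.45 to 0.04 for S1pr4, -0.28 to -0.17 for S1pr5, -1.10 to -0.87 for Klf2 and 0.49 to 0.58 for Ccr7. Background limits what the arrays can measure of genes near the 25th percentile.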
